A study of Mus musculus with 48 samples.

Results

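Type I interferon-stimulated antiviral genes are described here as 35 genes chosen by symbol, all 35 of which were among the 49568 genes of the count table of RAW264.7 cells, a mouse macrophage line. Cells were kept in medium for 72 h, refreshed at 48 h. They had no peptide (labelled PBS where IFN-γ was absent too) or a 15-mer peptide at 100 µg/ml, without or with IFN-γ at 5 ng/ml. The peptides were LE, named 65-79*0301 from a lupus-risk allele, SE, named 65-79*0401 from a risk allele of rheumatoid arthritis, and PE, named 65-79*0402 from a protective allele, all copies of 1 stretch of the HLA-DR β chain. The 8 groups are named PBS, LE, SE, PE, IFNy, LE+IFNy, SE+IFNy and PE+IFNy, and each has 6 libraries. All groups share 1 established cell line, and nothing in the labels names separate cultures, although the study calls its replicates biological and drawn from independent experiments, so p-values measure the spread between libraries, which may be technical. Tests used the 3 libraries per group whose labels carry a letter (24 in all). The other 24 libraries carry an HLA number, and 12 of these libraries went against the label: 20 target genes of IFN-γ had a mean log2(CPM + 0.5) of 6.97 to 7.003 in those labelled LE and 6.74 to 6.95 in those labelled PE, but 1.58 to 1.74 in those labelled IFNy and 1.57 to 1.71 in those labelled SE+IFNy. In the letter-labelled libraries this mean ran from 6.36 to 6.76 with IFN-γ and from 1.66 to 1.91 without it. With the HLA-labelled libraries added as labelled, 0 or 1 member passed the test in every comparison. Total counts ran from 16.5 to 26.9 M in the letter-labelled libraries and from 14.1 to 42.6 M in the others, and levels are given as CPM, counts per 1 M counts of the library. All 8 macrophage markers examined were detected (6677 to 12274 CPM summed, the range over libraries), T cell, B cell and epithelial markers each summed to under 1 CPM, fibroblast markers to at most 1.84 and endothelial markers to at most 2.62 CPM, and Ms4a1 and Epcam were at 0 in every library. Plasmacytoid dendritic cell markers summed to 184 to 275 CPM, with 2 of 4 over 1 CPM, among them Bst2, which is itself a member.

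These genes answer type I interferons (IFN-α and IFN-β), which signal through a receptor on nearly all cells, the kinases JAK1 and TYK2, and a complex that includes STAT2 and IRF9 and binds a promoter element called the ISRE. IFN-γ, the type II interferon, acts through another receptor and on an element called GAS, and switches on some of the same genes. Their products sense foreign RNA, block translation or viral entry, degrade RNA, modify proteins or tether virus particles, and in patients with lupus a raised set of such transcripts is known as the interferon signature. In a bulk library, fewer cells that hold a transcript and less of it per cell cannot be told apart.

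A promoter sequence from RefSeq (GRCm38.p6, 250 bases before to 50 after a start site, 300 in all) was found for 26 of the 35 members. Not matched were Mx1, Mx2, Oas2, Usp18, Dhx58, Rtp4, Siglec1, Parp9 and Parp14. The letters GAAA, 2 bases of any kind and GAAA again, here called ISRE-like and searched on both strands, were in a promoter of 13 of the 26 members and in 3.44% of all 32851 promoters. The letters TTCNNNGAA, called GAS-like, were in 7 of the 26 and in 8.3% of all promoters. A match is a description of letters, not of a bound site. An ISRE-like match was in 5 of the 11 matched members called higher with IFN-γ alone, in Ddx58, which was called lower, and in 7 of the 14 not called. A GAS-like match was in 1 of the 11 called higher (Ifit2), in 6 of the 14 not called, and not in Ddx58. The promoters printed here are those of members with large rises or falls with IFN-γ or with LE peptide, so that their letters can be set beside the values that follow. With Mx1 and Oas2 unmatched, Ifit3 and Ddx58 stand for the largest rise and fall with IFN-γ, and Rsad2 and Oas1g for those with LE. Capitals mark the ISRE-like matches (on either strand, overlapping matches joined), and all are written 5′ to 3′ on the gene's strand.
Ifit3, chr19:34583279-34583578, strand +: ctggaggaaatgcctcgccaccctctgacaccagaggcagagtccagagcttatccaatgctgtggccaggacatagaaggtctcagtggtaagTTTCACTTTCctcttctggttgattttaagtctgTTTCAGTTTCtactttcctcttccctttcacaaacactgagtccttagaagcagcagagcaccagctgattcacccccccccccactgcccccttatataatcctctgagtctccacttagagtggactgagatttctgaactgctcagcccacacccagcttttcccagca
Rsad2, chr12:26456403-26456702, strand -: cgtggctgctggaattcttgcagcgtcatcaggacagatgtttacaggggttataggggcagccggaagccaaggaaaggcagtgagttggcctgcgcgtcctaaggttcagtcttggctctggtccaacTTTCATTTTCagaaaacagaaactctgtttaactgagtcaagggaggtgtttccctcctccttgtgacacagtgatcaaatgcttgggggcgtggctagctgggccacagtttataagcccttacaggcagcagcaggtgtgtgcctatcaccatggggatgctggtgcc
Ddx58, chr4:40239776-40240075, strand -: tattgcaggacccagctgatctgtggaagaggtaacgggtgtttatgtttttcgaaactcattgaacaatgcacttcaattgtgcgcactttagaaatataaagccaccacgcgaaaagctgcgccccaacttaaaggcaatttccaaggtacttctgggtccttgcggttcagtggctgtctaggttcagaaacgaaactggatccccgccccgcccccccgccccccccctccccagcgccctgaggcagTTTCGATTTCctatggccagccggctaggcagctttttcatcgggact
Oas1g, chr5:120887564-120887863, strand -: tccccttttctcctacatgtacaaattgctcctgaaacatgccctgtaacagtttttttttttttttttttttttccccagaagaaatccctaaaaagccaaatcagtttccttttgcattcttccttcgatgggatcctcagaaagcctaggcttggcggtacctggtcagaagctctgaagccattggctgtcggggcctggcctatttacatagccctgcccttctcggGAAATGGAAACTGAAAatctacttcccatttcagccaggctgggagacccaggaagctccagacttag

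In the PBS libraries the members spanned a wide range of levels. Per kilobase of exon, the lowest was Mx1 with 0.0687 CPM per kb and the highest Ifitm3 with 956 CPM per kb. Ifitm3, which blocks the fusion of viruses in endosomes, and Bst2 (tetherin), which holds budding virus at the cell surface, with 168 CPM per kb, stood above Trim25, a ubiquitin ligase that acts on RIG-I, with 60.3 and Oas1a with 58.9 CPM per kb. At the low end, Ifit3 had 0.366, Ifit1 0.577, Rsad2 0.669, Mx2 0.769 and Oasl2 0.789 CPM per kb. All 35 members were above the floor of 3 counts in at least 1 library of every group.

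IFN-γ alone was compared with PBS to ask which of these genes the type II cytokine moves in the absence of peptide. Of the 35 members, 14 rose (40%, where 9.79% of all 12242 genes tested rose) and 2 fell (5.71%, where 8.28% fell), a gene being called at an edgeR adjusted p below 0.05 with a change of more than 1.5-fold. The members had a median log2 fold change of 0.31, against -0.0088 over all genes tested. The range ran from -1.34 to 4.33. The 3 IFNy libraries lay above the 3 PBS libraries without overlap for 19 members (24.6% of all genes tested did), below them for 6 (27.1% of all genes), and overlapped for 10.

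**Figure D1:**
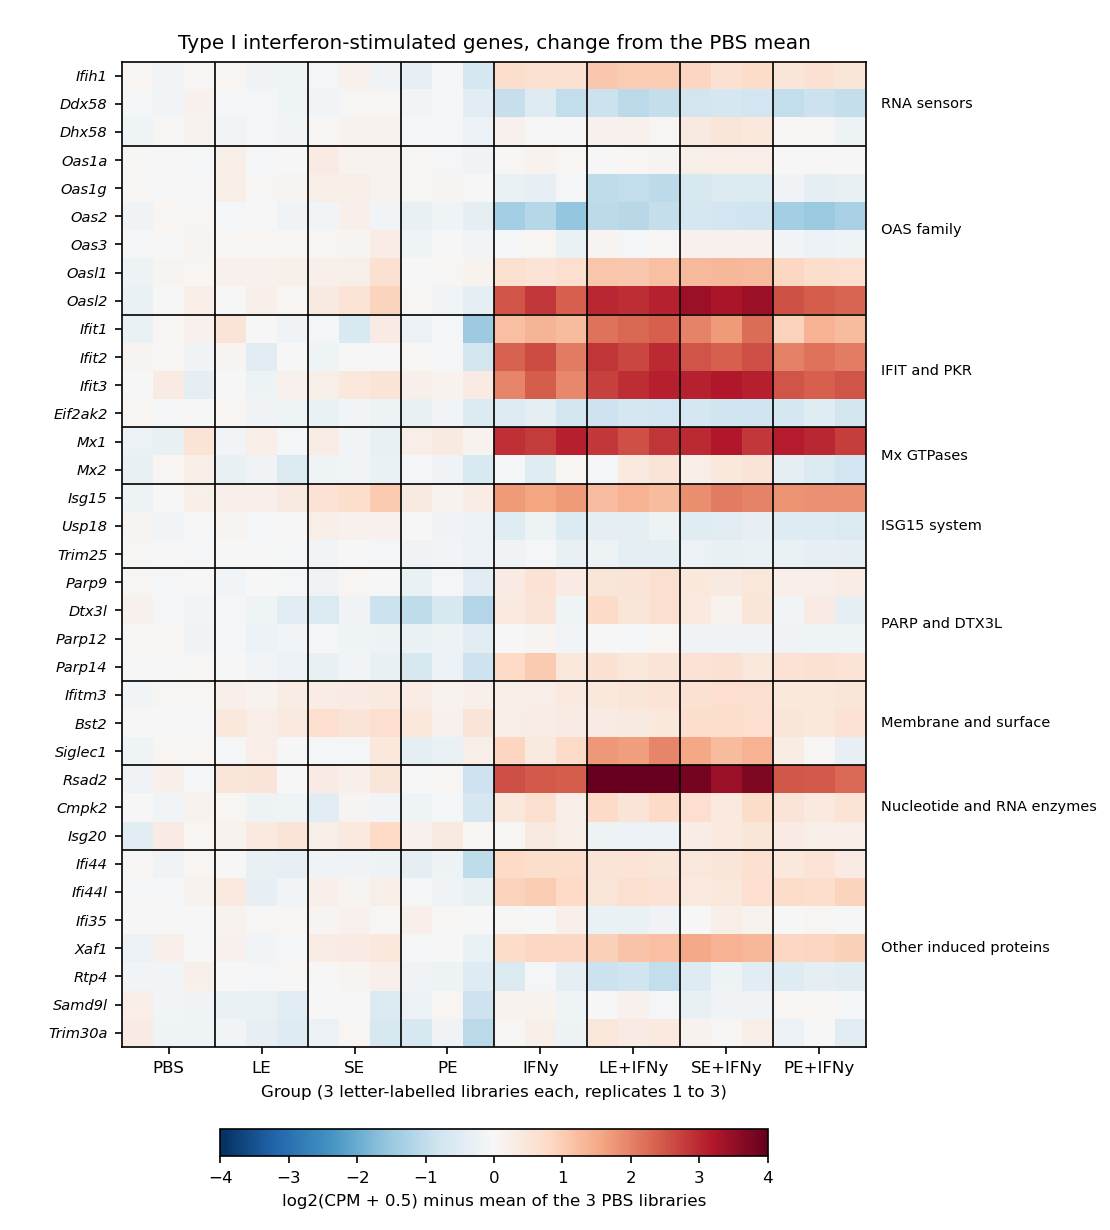
Each row is 1 of the 35 members, ordered by role, and each column 1 of the 24 letter-labelled libraries, 3 per group, and colour gives log2(CPM + 0.5) minus the mean of the 3 PBS libraries, saturating at a difference of 4 either way. Rows such as Mx1, Rsad2, Ifit3, Ifit2 and Oasl2 turn red in all 12 IFN-γ libraries, and Oas2 and Ddx58 turn blue.

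Mx1, the gene of a dynamin-like GTPase known to block influenza viruses in the nucleus, rose most. Whether this cell line makes a working Mx1 protein was not tested. Mx1 had 0.127, 0.0906 and 0.563 CPM in the PBS libraries (3, 2 and 12 counts) and 5.04, 4.58 and 5.85 CPM with IFN-γ, a log2 fold change of 4.33 ± 0.421 (standard error, adjusted p 1.13e-05 by edgeR). Its PBS level is close to the counting floor, and it passed the filter on low counts through the IFN-γ groups, and it did not pass among the groups without IFN-γ. Its relative Mx2 was not called, with 2.78 CPM in PBS and 2.44 CPM with IFN-γ on average, a log2 fold change of -0.18 (adjusted p 0.628 by edgeR). Mx1 lies at chromosome 16, 97447035 to 97462907, and Mx2 next to it at chromosome 16, 97535308 to 97560900 (GRCm38, GENCODE M21, as are all gene positions here).

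The protein of Ifit1 binds viral RNA that lacks the cap marks of the cell's own messages, and all 3 IFIT members rose with IFN-γ. Ifit3 (chromosome 19, 34583531 to 34588731) had 0.633, 0.906 and 0.375 CPM in PBS and 3.81, 5.48 and 3.77 CPM with IFN-γ, a log2 fold change of 2.77 ± 0.316 (standard error, adjusted p 3.85e-05 by edgeR). Ifit1 (chromosome 19, 34640871 to 34650009) had 1.18, 1.63 and 1.78 CPM in PBS and 4.14, 4.66 and 4.34 CPM with IFN-γ, a log2 fold change of 1.53 ± 0.225 (standard error, adjusted p 0.000248 by edgeR). No IFNy library of either gene was as low as any PBS library. Ifit3 was low enough in PBS that, in this fit, it passed the filter on low counts with the help of its IFNy libraries. Ifit2 rose from 4.07 ± 0.409 to 23.1 ± 4.18 CPM (SD, n = 3), a log2 fold change of 2.52 (adjusted p 2.61e-07 by edgeR). Ifit3 shares 31.7% of its 100-base words with Ifit3b, so its count of uniquely mapped reads covers only part of the transcript and is uncertain. Eif2ak2 (PKR), the kinase that stops translation by phosphorylating eIF2α, went the other way, from 42.8 to 29.3 CPM with a log2 fold change of -0.53 (adjusted p 0.0013 by edgeR), short of the fold minimum.

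The OAS family, named for enzymes that make short adenylate chains to activate RNase L, split by member. Oasl2 rose from 4.01, 4.98 and 6.1 CPM in PBS to 30.6, 38.5 and 28.3 CPM with IFN-γ, a log2 fold change of 2.71 ± 0.167 (standard error, adjusted p 2.46e-07 by edgeR). Oasl1, which holds down translation of IRF7, rose less, by 0.64 (adjusted p 0.000229 by edgeR), from 64.2 to 99.1 CPM. Oas2 (chromosome 5, 120730333 to 120749853) fell from 54.3, 62.2 and 61.8 CPM to 23, 26.7 and 20.05 CPM, a log2 fold change of -1.34 ± 0.11 (standard error, adjusted p 3.01e-06 by edgeR), the largest fall among the members. The highest IFNy library of Oas2 was below the lowest PBS library. Oas1a, Oas1g and Oas3 were not called, with log2 fold changes of 0.10, -0.21 and -0.058. Oas1a and Oas1g share 40.9% and 31.2% of their 100-base words with each other, so unique counting leaves both uncertain.

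The RNA sensors also split. Ifih1 (MDA5), the sensor of long double-stranded RNA, at chromosome 2, 62595798 to 62646255, had 17.4, 15 and 16.7 CPM in PBS and 27.2, 25.4 and 25.3 CPM with IFN-γ, a log2 fold change of 0.68 ± 0.0959 (standard error, adjusted p 0.000178 by edgeR). Ddx58 (RIG-I), the sensor of RNA with a 5′ triphosphate, had 47.2, 45.2 and 54.8 CPM in PBS and 25.7, 34 and 24.5 CPM with IFN-γ, a log2 fold change of -0.79 ± 0.127 (standard error, adjusted p 0.000485 by edgeR). The sensors thus moved in opposite directions, each without overlap between the groups. Dhx58 (LGP2), which modulates both, had a log2 fold change of 0.066 (adjusted p 0.656 by edgeR).

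Isg15 encodes a ubiquitin-like modifier that is attached to many proteins. Isg15 (chromosome 4, 156199424 to 156200818) had 14, 16.1 and 19.3 CPM in PBS and 54.3, 49.6 and 54.2 CPM with IFN-γ, a log2 fold change of 1.70 ± 0.117 (standard error, adjusted p 6.82e-07 by edgeR). Usp18, the protease that removes ISG15 and dampens the receptor, went from 88.8 to 66.8 CPM, a log2 fold change of -0.39 (adjusted p 0.0074 by edgeR) that did not reach the fold minimum. Trim25 had a log2 fold change of -0.15 (adjusted p 0.126 by edgeR).

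Rsad2 (viperin), which makes a chain-terminating nucleotide, at chromosome 12, 26442746 to 26456452, had 2.58, 3.4 and 2.72 CPM in PBS and 19.8, 18.1 and 17.7 CPM with IFN-γ, a log2 fold change of 2.69 ± 0.147 (standard error, adjusted p 7.96e-08 by edgeR). Cmpk2, a mitochondrial nucleotide kinase, is its neighbour on the opposite strand (chromosome 12, 26469204 to 26479837) and had a smaller difference, from 7.69 to 10.7 CPM, a log2 fold change of 0.49 (adjusted p 0.0201 by edgeR). Isg20, an RNA exonuclease, had a log2 fold change of 0.21 (adjusted p 0.415 by edgeR). Among surface and membrane proteins, Siglec1 (CD169), a sialic acid receptor of macrophages, rose by 0.70 (adjusted p 0.00108 by edgeR). Ifitm3 (chromosome 7, 141009586 to 141010770) had 598, 671 and 676 CPM in PBS and 755, 785 and 846 CPM with IFN-γ, a log2 fold change of 0.31 ± 0.0838 (standard error, adjusted p 0.0117 by edgeR). Ifitm3 and Bst2 (0.31) lay higher in every IFNy library than in any PBS library but stayed under the fold minimum. Of the ADP-ribosyltransferases, Parp14 rose by 0.82 (adjusted p 0.000241 by edgeR), while Parp9 (0.44), its partner ligase Dtx3l (0.29) and Parp12 (0.0038) were not called. Ifi44l rose by 0.96 (adjusted p 3.42e-05 by edgeR), Xaf1, a pro-apoptotic factor, by 0.83 (adjusted p 0.000214 by edgeR), and Ifi44 by 0.75 (adjusted p 1.37e-05 by edgeR). Log2 fold changes of Ifi35, Rtp4, Samd9l and Trim30a were 0.10, -0.31, 0.038 and 0.028, none of them called. Leaving out replicate 1 brought Oasl1 to 0.54 and Siglec1 to 0.54, under the fold minimum.

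**Figure D2:**
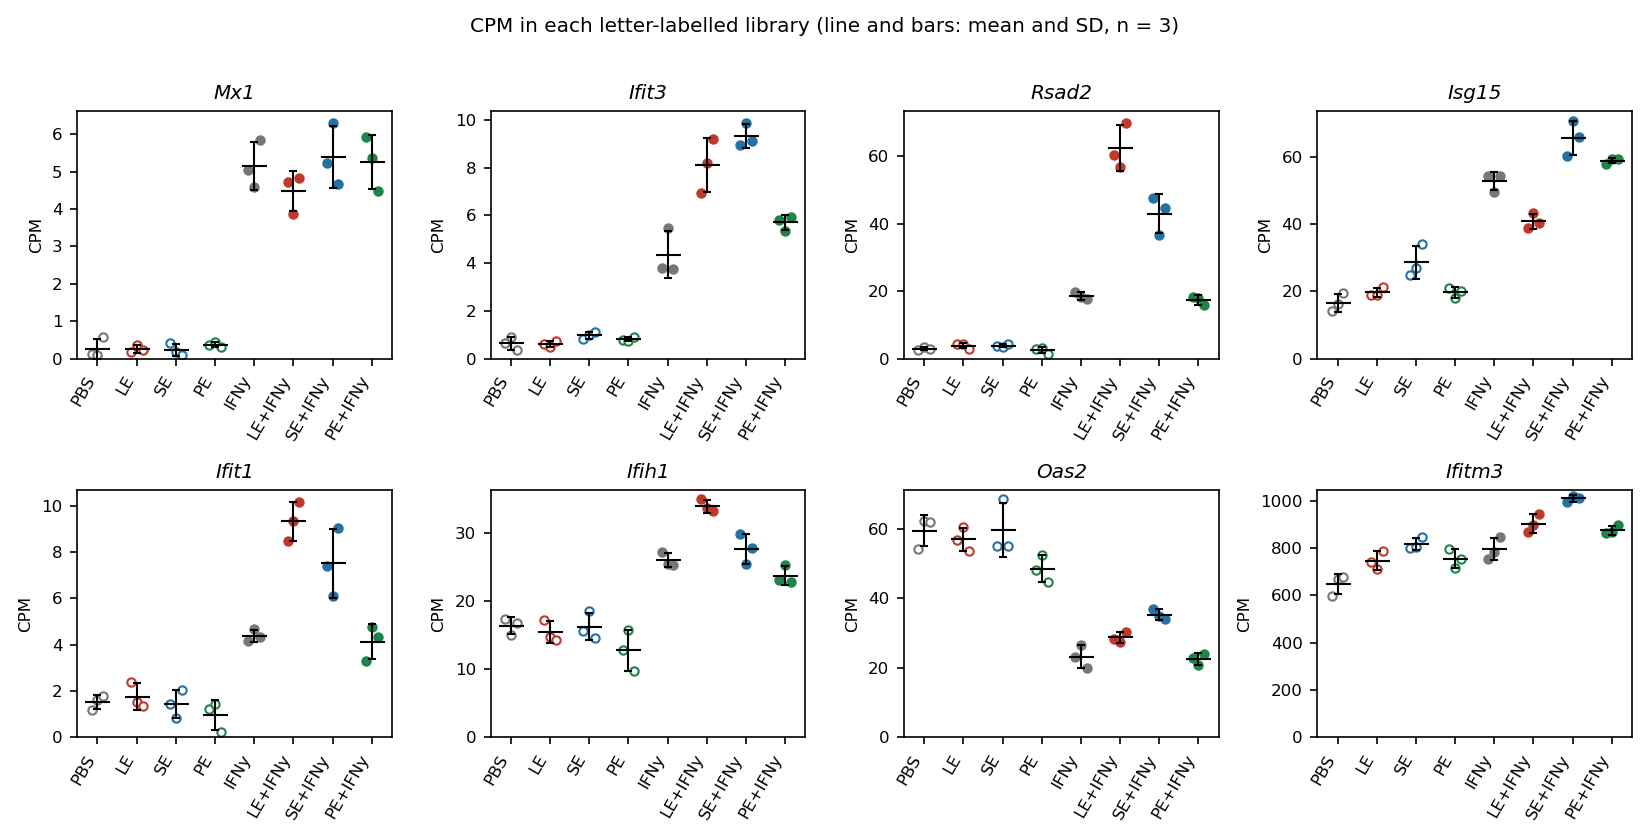
CPM of 8 members in each letter-labelled library, from 0 on each axis, where open points are libraries without IFN-γ and filled points with it, and the line and bars give mean and SD (n = 3). Rsad2 stands at 62.4 CPM with LE+IFNy against 18.5 CPM with IFNy, and Oas2 is lower in all IFN-γ groups than in the groups without it.

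The change with IFN-γ was set beside the level in PBS. Of the 12 members with the lowest PBS level per kb (0.0687 to 4.71 CPM per kb), 9 rose and 0 fell, with a median log2 fold change of 1.18. Without Mx1, which passed the filter on low counts through the IFNy libraries, 8 of 11 rose, with a median of 0.83. Ifit3, with 0.638 CPM in PBS on average, stays in these figures, although in this fit it too passed the filter with the help of its IFNy libraries. Of the 12 in the middle (4.89 to 13.4 CPM per kb), 3 rose and 2 fell, with a median of 0.0521, and of the 11 highest (13.7 to 956 CPM per kb) 2 rose and 0 fell, with a median of 0.10. Over all genes tested, whatever their level, 9.79% rose and 8.28% fell. Genes outside the members were not split by PBS level, so this split is not a result about these members in particular. Across the 35 genes the Spearman correlation of log2 fold change with PBS level was -0.52 (-0.477 without Mx1 but with Ifit3). With the level in the SE libraries, which do not enter the fold change, it was -0.486. That value keeps Mx1 and Ifit3, which passed the filter through or with the help of high IFNy libraries. It was not redone without them, so it is not a check that is free of the fold change. The correlations with PBS level and the split by PBS level share the PBS libraries with the fold change, and genes are not independent replicates. Mx2, with 0.769 CPM per kb in PBS, was at the low end and was not called, and Isg15, with 21.8 CPM per kb, rose from a higher base.

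**Figure D3:**
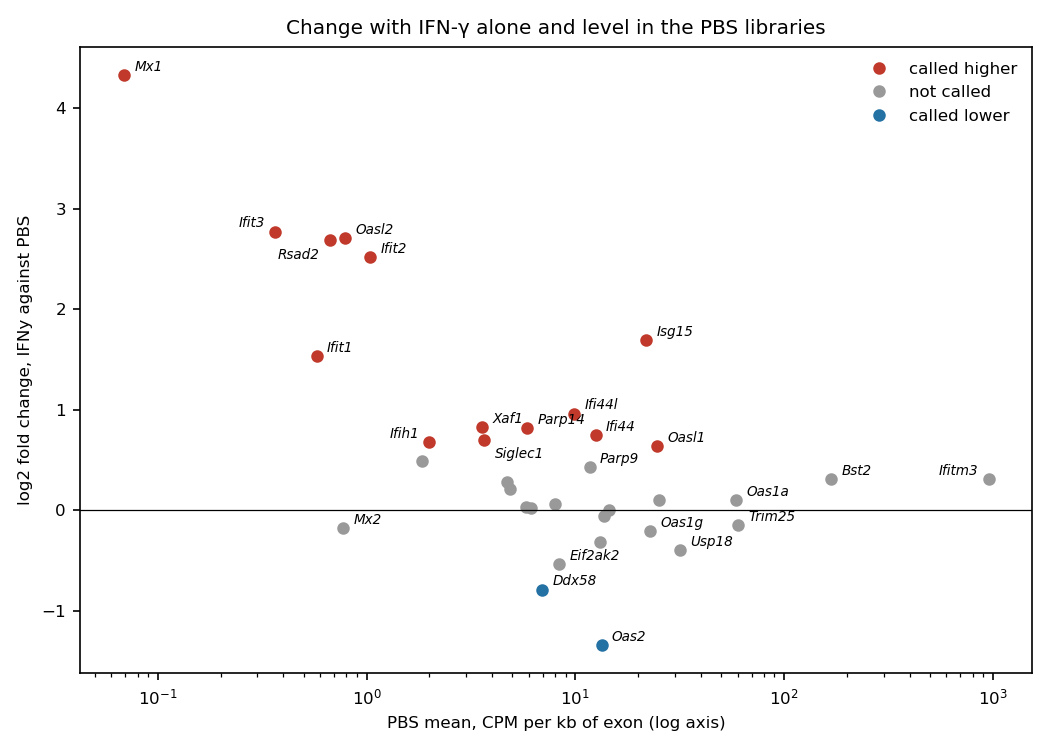
Log2 fold change of IFNy against PBS for the 35 members over their mean PBS level in CPM per kb of exon (log axis), with red points called higher (14), blue lower (2) and grey not called. The largest rises are at the left, where the PBS level is lowest, and Ifitm3 at 956 CPM per kb lies at 0.31.

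Each peptide by itself was set against PBS, and all members but Mx1 (34) were tested. LE called 0 of 34 members by edgeR (3 had an unadjusted p under 0.05, and DESeq2 also called 0), where 0.0242% of 12420 genes were called in either direction. SE called 3 higher and 0 lower, where 0.676% and 1.25% of all genes were called. PE called 0 higher and 1 lower, where the shares of all genes were 0.652% and 2.48%. These comparisons share the 3 PBS libraries. The members' median log2 fold change was 0.025 with LE, 0.17 with SE and -0.095 with PE.

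The 3 members that rose with SE were Isg15, Oasl2 and Bst2. Isg15 had 24.7, 27 and 34 CPM with SE, against 14, 16.1 and 19.3 CPM in PBS, a log2 fold change of 0.87 ± 0.144 (standard error, adjusted p 0.00643 by edgeR). With LE it had 18.8, 19 and 21.1 CPM and with PE 21, 17.9 and 20.002 CPM, values that overlapped those of PBS and lay below those of SE. Every SE library thus lay above every other library without IFN-γ, and below every library with it. Oasl2 had 6.57, 7.55 and 9.61 CPM with SE, a log2 fold change of 0.73 ± 0.19 (standard error, adjusted p 0.025 by edgeR), and Bst2 had 239, 218 and 242 CPM against 150.2, 153 and 151 CPM in PBS, a log2 fold change of 0.70 ± 0.0904 (standard error, adjusted p 0.00162 by edgeR). Oasl2 with SE stayed far under its level with IFN-γ (32.5 CPM), while Bst2 was higher with SE (233 CPM) than with IFN-γ (185 CPM), a pair that was not tested. Oasl2 lost its call without replicate 1 (0.70), 2 (0.78) or 3 (0.71), and Isg15 (0.86) and Bst2 (0.66) lost theirs without replicate 1.

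Dtx3l, the E3 ligase that pairs with PARP9, was the member that fell with PE. It had 30.3, 25.7 and 24.9 CPM in PBS and 13.1, 16.9 and 11.6 CPM with PE, a log2 fold change of -0.87 ± 0.161 (standard error, adjusted p 0.00631 by edgeR), and 23.1 CPM with LE and 18.9 CPM with SE on average. Without replicate 1, 0 members were called for PE (Dtx3l -0.74), and without replicate 2, 5 were. Transcript length moved with these differences: over all genes, the Spearman correlation of log2 fold change with exon length was -0.37 with LE, -0.44 with SE and -0.45 with PE. Isg15 (756 bases) and Bst2 (903 bases) are short and Dtx3l (5725 bases) is long. With that trend subtracted, the log2 fold change of Isg15 with SE was 0.62, of Oasl2 0.83, of Bst2 0.46, which is under the fold minimum, and of Dtx3l with PE -0.78.

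The other members named for every library had these values in the groups without IFN-γ, and none was called. Ifit1 had 2.41, 1.54 and 1.34 CPM with LE, 1.43, 0.819 and 2.03 CPM with SE and 1.22, 1.43 and 0.242 CPM with PE. Ifit3 had 0.614, 0.466 and 0.751 CPM with LE, 0.816, 0.995 and 1.11 CPM with SE and 0.795, 0.735 and 0.909 CPM with PE. Both stayed below every library with IFN-γ. Rsad2 had 4.21, 4.34 and 2.84 CPM with LE, 3.75, 3.39 and 4.2 CPM with SE and 2.85, 2.98 and 1.39 CPM with PE. Mx1 had 0.175, 0.373 and 0.214 CPM with LE, 0.408, 0.176 and 0.0966 CPM with SE and 0.374, 0.432 and 0.303 CPM with PE, which is 2 to 10 counts a library. The third PE library was the lowest of the 12 without IFN-γ for Ifit1 and Rsad2, and it also had the lowest total, 16.5 M. Ifih1 had 17.3, 14.8 and 14.3 CPM with LE, 15.6, 18.5 and 14.6 CPM with SE and 12.8, 15.8 and 9.76 CPM with PE. Oas2 had 56.7, 60.5 and 53.7 CPM with LE, 55.2, 68.7 and 55.2 CPM with SE and 48.1, 52.5 and 44.7 CPM with PE. Ifitm3 had 742, 711 and 789 CPM with LE, 802, 805 and 847 CPM with SE and 797, 715 and 753 CPM with PE, log2 fold changes of 0.25, 0.41 and 0.31. Ifitm3 is also a short transcript, of 678 bases.

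Model A of the study compares a peptide together with IFN-γ with IFN-γ alone, and so asks what the peptide adds. SE+IFNy raised 9 of 35 members (25.7%) and lowered 0, where 5.01% and 2.38% of 12720 genes were called. LE+IFNy raised 4 (11.4%) and lowered 1 (2.86%), shares near or below the 9.58% and 5.93% of all genes. PE+IFNy raised 0 and lowered 1, where 0.448% and 0.181% of all genes were called. The LE share is therefore not a result about these members as a set. All of these share the 3 IFNy libraries, and without replicate 2 LE called 8 members in place of 5.

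Rsad2 rose most with both peptides. It had 60.5, 56.9 and 69.9 CPM with LE+IFNy, a log2 fold change of 1.77 ± 0.1003 (standard error, adjusted p 3.59e-10 by edgeR) over IFN-γ alone. It had 47.5, 36.7 and 44.8 CPM with SE+IFNy, a log2 fold change of 1.24 ± 0.101 (standard error, adjusted p 5.59e-08 by edgeR). With PE+IFNy it had 18.4, 18 and 15.7 CPM, a log2 fold change of -0.068 (adjusted p 0.724 by edgeR) with a 95% interval of -0.29 to 0.16. All LE+IFNy and SE+IFNy libraries lay above all IFNy and PE+IFNy libraries. Cmpk2, the neighbour of Rsad2, was not called with any peptide, at 0.25, 0.18 and 0.052 for LE, SE and PE.

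Siglec1 had 47.2, 34.2 and 45 CPM with IFNy and 88.7, 83.9 and 103 CPM with LE+IFNy, a log2 fold change of 1.14 ± 0.129 (standard error, adjusted p 1.06e-06 by edgeR). It had 76.9, 62.8 and 68.6 CPM with SE+IFNy, a log2 fold change of 0.75 ± 0.129 (standard error, adjusted p 0.000226 by edgeR). With PE+IFNy it had 31.9, 26.9 and 20.6 CPM, a log2 fold change of -0.64 ± 0.137 (standard error, adjusted p 0.0109 by edgeR), the 1 call for PE. LE and SE thus stood on the other side of IFN-γ alone from PE for this receptor. The PE call was lost without replicate 1 (-0.71) and without replicate 3 (-0.44), and the log2 fold change was -0.57 with the length trend subtracted, under the fold minimum. Without replicate 2, 2 members were called for PE.

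Of the IFIT genes, Ifit1 and Ifit3 rose with LE and with SE, and Ifit2 was not called. Ifit1 had 8.48, 9.32 and 10.2 CPM with LE+IFNy, 7.42, 6.09 and 9.05 CPM with SE+IFNy and 3.3, 4.76 and 4.33 CPM with PE+IFNy. Its log2 fold changes over IFN-γ alone were 1.10 ± 0.156 (standard error, adjusted p 1.38e-05 by edgeR) for LE and 0.81 ± 0.159 (standard error, adjusted p 0.000726 by edgeR) for SE. Ifit3 had 6.92, 8.21 and 9.21 CPM with LE+IFNy, 8.97, 9.9 and 9.13 CPM with SE+IFNy and 5.83, 5.33 and 5.95 CPM with PE+IFNy. Against IFN-γ alone it changed by 0.91 ± 0.149 (standard error, adjusted p 6.55e-05 by edgeR) with LE and 1.12 ± 0.148 (standard error, adjusted p 1.4e-05 by edgeR) with SE on the log2 scale, and had a log2 fold change of 0.41 (adjusted p 0.091 by edgeR) with PE. Ifit2 differed by 0.49 with LE and 0.15 with SE.

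In the OAS family Oasl2, Oasl1 and Oas2 were called higher with SE. With LE, Oasl2 and Oasl1 passed the adjusted p but not the fold minimum, and in the direct comparison of LE with SE none of the 3 was called. Oasl2 had 57.9, 52.1 and 58.1 CPM with SE+IFNy, a log2 fold change of 0.81 ± 0.0907 (standard error, adjusted p 2.19e-06 by edgeR), and 43.3, 41.4 and 45.7 CPM with LE+IFNy, a log2 fold change of 0.43 (adjusted p 0.000685 by edgeR). Oasl1 rose with SE by 0.71 (adjusted p 3.47e-08 by edgeR) and differed with LE by 0.51 (adjusted p 6.89e-07 by edgeR), under the fold minimum. Oas2 had 28.3, 27.5 and 30.4 CPM with LE+IFNy, 37.1, 34.9 and 34 CPM with SE+IFNy and 22.8, 20.8 and 24 CPM with PE+IFNy. Its log2 fold change with SE was 0.63 ± 0.090004 (standard error, adjusted p 3.49e-05 by edgeR), so a gene that IFN-γ lowered stood higher with SE, though still below every library without IFN-γ. Oas1g fell with LE, from 43.8, 41.8 and 50.8 CPM with IFNy to 25.8, 26.7 and 25.7 CPM, a log2 fold change of -0.79 ± 0.0821 (standard error, adjusted p 4.38e-07 by edgeR). With SE Oas1g differed by -0.36 (adjusted p 0.00215 by edgeR), short of the fold minimum. The Oas2 call for SE dropped under the fold minimum without replicate 1 (0.58) and without replicate 3 (0.58).

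Mx2 had 2.54, 1.84 and 2.92 CPM with IFNy, 2.62, 3.75 and 4.1 CPM with LE+IFNy and 3.4, 3.81 and 4.11 CPM with SE+IFNy, and was called for SE with a log2 fold change of 0.66 ± 0.208 (standard error, adjusted p 0.0193 by edgeR). Its paralogue Mx1 had 4.72, 3.86 and 4.85 CPM with LE+IFNy, 5.24, 6.31 and 4.66 CPM with SE+IFNy and 5.92, 5.37 and 4.5 CPM with PE+IFNy. Mx1, which had the largest response to IFN-γ, was not called with any peptide, with 95% intervals of -0.52 to 0.14 for LE, -0.23 to 0.42 for SE and -0.27 to 0.39 for PE. Xaf1 rose with SE by 0.63 (adjusted p 7.29e-06 by edgeR) and differed with LE by 0.32 (adjusted p 0.00262 by edgeR). Without replicate 2 the SE call of Mx2 was lost (0.49), and without replicate 1 that of Xaf1 (0.55).

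Isg15 had 38.8, 43.3 and 40.2 CPM with LE+IFNy, 60.3, 70.5 and 65.9 CPM with SE+IFNy and 57.9, 59.2 and 59.3 CPM with PE+IFNy. Its log2 fold changes over IFN-γ alone were -0.36 (adjusted p 0.000319 by edgeR) for LE and 0.34 (adjusted p 0.000733 by edgeR) for SE, in opposite directions and both under the fold minimum. Ifih1 had 35, 33.6 and 33.1 CPM with LE+IFNy, 29.8, 25.4 and 27.7 CPM with SE+IFNy and 23.1, 25.3 and 22.8 CPM with PE+IFNy. It was highest with LE, by 0.40 (adjusted p 0.000168 by edgeR), under the fold minimum. Ifitm3 had 866, 899 and 945 CPM with LE+IFNy, 995, 1022 and 1013 CPM with SE+IFNy and 863, 867 and 896 CPM with PE+IFNy. Its log2 fold changes were 0.20, 0.37 and 0.17 for LE, SE and PE. With no fold minimum, 23 members passed the adjusted p for LE, where 50.5% of all genes did, 18 for SE, where 33.4% did, and 3 for PE, where 10% did.

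**Figure D4:**
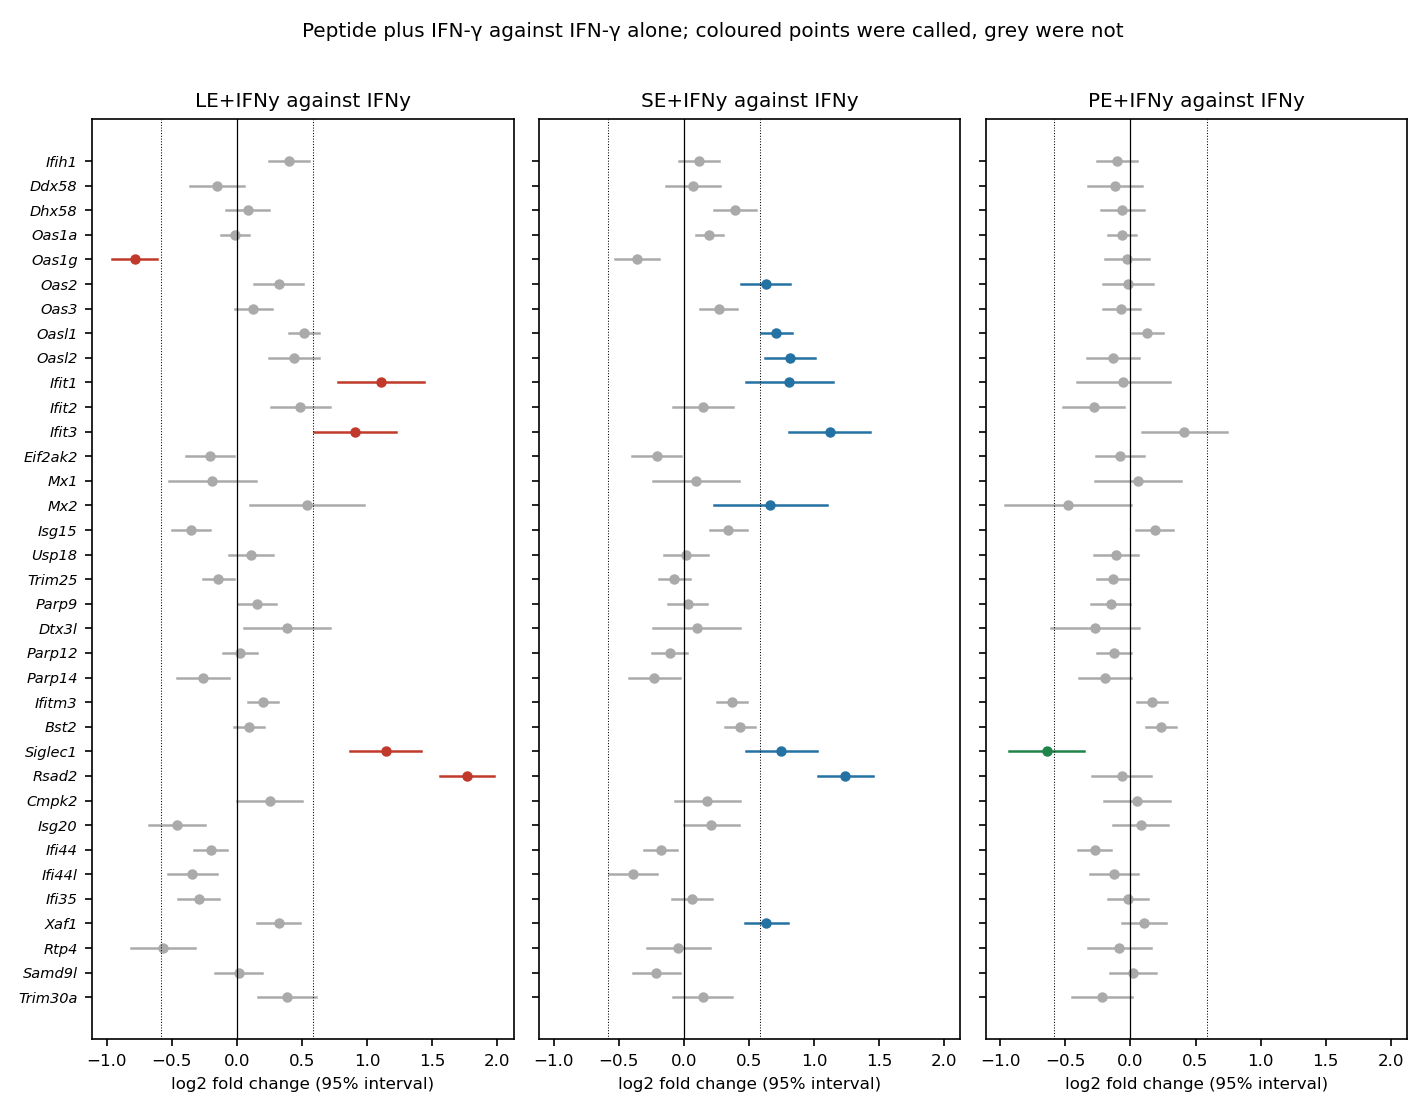
Log2 fold change of each peptide with IFN-γ against IFN-γ alone for the 35 members, with 95% intervals from the edgeR fit, in the same order as the heat map, and dotted lines at 1.5-fold. Coloured points were called, 5 with LE, 9 with SE and 1 with PE, and Rsad2 is farthest to the right for LE (1.77) and SE (1.24), and Siglec1 is to the right for LE and SE and to the left for PE.

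The peptides were then compared pair by pair among cells with IFN-γ, at the same dose and time, in 3 pairs. LE and SE differed at 2 of 35 members, both lower with LE, where 3.31% of all genes were higher and 1.62% lower. These were Isg15, with a log2 fold change of -0.70 ± 0.0679 (standard error, adjusted p 4.29e-06 by edgeR), and Isg20, with -0.67 ± 0.101 (standard error, adjusted p 0.000136 by edgeR). Isg20 had 7.57, 7.43 and 7.47 CPM with LE+IFNy and 11, 11.9 and 12.6 CPM with SE+IFNy, without overlap. Length moved with this comparison too (Spearman correlation 0.35 over all genes), and with that trend subtracted Isg15 differed by -0.50 and Isg20 (1860 bases) by -0.54, both under the fold minimum. Without replicate 1, 4 members were called. Rsad2 differed between LE and SE by 0.53 (adjusted p 0.000493 by edgeR), with a 95% interval of 0.33 to 0.72, and Siglec1 by 0.39 (adjusted p 0.0208 by edgeR).

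LE stood higher than PE at 7 members and lower at 1, where 12.7% of all genes were higher and 8.94% lower. SE stood higher than PE at 7 and lower at 0, where the shares were 5.25% and 2.34%. Rsad2 led LE against PE, with 1.83 ± 0.101 (standard error, adjusted p 2.38e-10 by edgeR), followed by Siglec1 with 1.79 (adjusted p 7.68e-09 by edgeR) and Ifit1 with 1.157 (adjusted p 6.19e-06 by edgeR). Oas1g, with 48.4, 40.5 and 42.8 CPM with PE+IFNy, was the member lower with LE, with a log2 fold change of -0.76 (adjusted p 4.62e-07 by edgeR). Siglec1 led SE against PE, with 1.39 ± 0.134 (standard error, adjusted p 4.95e-07 by edgeR), followed by Rsad2 with 1.31 (adjusted p 4.01e-08 by edgeR) and Mx2 with 1.14 (adjusted p 0.000556 by edgeR). Mx2 had 1.99, 1.72 and 1.41 CPM with PE+IFNy, all below the LE+IFNy and SE+IFNy libraries. Ifit1, Mx2, Rsad2 and Siglec1 were called against PE for both peptides, Ifit2, Dtx3l and Trim30a for LE alone and Ifit3, Oas2 and Oasl2 for SE alone. In the direct comparison of LE with SE none of these last 6 was called. The calls of Dtx3l (0.54 and 0.51) and Trim30a (0.56 and 0.50) were lost without replicate 1 and without replicate 3, and with the length trend subtracted Oas1g (-0.58) and Dtx3l (0.58) came under the fold minimum.

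Model B sets peptide and IFN-γ together against the same peptide, and gives the cytokine response in cells that had each peptide. With LE 17 members rose and 6 fell, where 19.1% and 15.9% of 12947 genes did. With SE 16 rose and 5 fell, where 15.1% and 11.3% did, and with PE 15 rose and 2 fell, where 12.1% and 8.82% did. Mx1 rose by 4.08 (adjusted p 2.12e-10 by edgeR) with LE, 4.42 (adjusted p 9.15e-11 by edgeR) with SE and 3.74 (adjusted p 5.8e-10 by edgeR) with PE. Rsad2 rose by 4.00 (adjusted p 1.65e-14 by edgeR) with LE, 3.46 (adjusted p 2.53e-13 by edgeR) with SE and 2.75 (adjusted p 7e-11 by edgeR) with PE. Ifit3 rose by 3.71 (adjusted p 1.45e-12 by edgeR) with LE, 3.22 (adjusted p 5.08e-12 by edgeR) with SE and 2.77 (adjusted p 2.27e-10 by edgeR) with PE. These 3 members also rose with IFN-γ alone against PBS. Among those that fell, Oas2 did so with each peptide, with log2 fold changes of -1.01, -0.79 and -1.15 for LE, SE and PE, and so did Ddx58, with -0.89, -0.79 and -0.81. Ddx58 had 45.5, 50.3 and 50.7 CPM with SE and 29, 29.7 and 28.2 CPM with SE+IFNy, and 45.3, 47 and 36.5 CPM with PE and 24.7, 26.5 and 25 CPM with PE+IFNy. The groups did not overlap for Ddx58 with either peptide. Oas1g fell with LE by 1.18 (adjusted p 6.27e-12 by edgeR) on the log2 scale, from 62.8, 54.4 and 57.1 CPM to 25.8, 26.7 and 25.7 CPM, and with SE by 0.85 (adjusted p 1.21e-09 by edgeR), and it was not called with PE, at -0.39. Rtp4, a chaperone of membrane receptors, from 28.1, 26.5 and 29.2 CPM with LE to 15.1, 15.7 and 14 CPM with LE+IFNy, fell by 0.93 (adjusted p 1.05e-07 by edgeR) on the log2 scale. Eif2ak2 fell with LE (-0.71) and SE (-0.63), Isg20 with LE (-0.65) and Usp18 with SE (-0.65). With the length trend subtracted (Spearman correlation 0.22 over all genes for LE), the LE calls of Isg20 (-0.45) and Parp14 (0.42) came under the fold minimum. Without replicate 3 the LE calls of Mx2 (0.46), Parp14 (0.57) and Isg20 (-0.55) were lost, as were the SE call of Mx2 (0.53) and the PE call of Cmpk2 (0.55). Mx2 (0.67) and Eif2ak2 (-0.58) lost the SE call without replicate 2, and without replicate 1 Cmpk2 lost it for SE (0.57) and Oasl1 for PE (0.56).

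Whether a peptide changed the response to IFN-γ was tested as an interaction, the response with the peptide minus the response without it, in a fit of all 8 groups. For LE the difference was positive for 5 members (14.3%) and negative for 4 (11.4%), where 11.3% and 7.58% of 13096 genes were called. For SE these were 1 (2.86%) and 2 (5.71%), where 5.08% and 2.88% were called. For PE 0 members were called, where 0% of all genes were (4 members had an unadjusted p under 0.05, and DESeq2 also called 0). The shares lie near those of all genes, so these counts are not a result about the members as a set. The response of Rsad2 was larger with LE, by 1.31 ± 0.236 (standard error, adjusted p 0.000139 by edgeR), and with SE, by 0.77 ± 0.237 (standard error, adjusted p 0.0235 by edgeR). Siglec1 had 23, 27.7 and 27.7 CPM in PBS and 24.6, 31.1 and 25.6 CPM with LE, and its response was larger with LE by 1.03 (adjusted p 0.00178 by edgeR). That of Ifit3 was larger by 0.93 (adjusted p 0.0448 by edgeR). Oas1g had a lower response with LE, the difference being -0.97 ± 0.104 (standard error, adjusted p 2.44e-07 by edgeR), and with SE, -0.64 ± 0.103 (standard error, adjusted p 0.00012 by edgeR). It had 54.6, 52.6 and 52.1 CPM in PBS, 62, 62.3 and 58.4 CPM with SE and 34, 35.1 and 35.2 CPM with SE+IFNy. Isg20 (-0.86, adjusted p 0.00551 by edgeR), Isg15 (-0.67, adjusted p 0.00257 by edgeR) and Rtp4 (-0.61, adjusted p 0.00762 by edgeR) had negative differences with LE, and Ifi44l (-0.65, adjusted p 0.011 by edgeR) with SE. Isg20 had 6.55, 11.3 and 9.47 CPM in PBS, 9.22, 11.5 and 10.5 CPM with IFNy and 9.82, 11.9 and 13 CPM with LE. Ifi44l had 13, 12.9 and 15.1 CPM in PBS, 26.4, 28.3 and 24.2 CPM with IFNy, 15.7, 14.6 and 15.9 CPM with SE and 18.1, 18.9 and 22 CPM with SE+IFNy. The interactions of Mx2 (0.89) and Trim30a (0.66) with LE were called as well. Log2 change moved with exon length in both interactions (Spearman correlation 0.31 for LE and 0.26 for SE over all genes), and with that trend subtracted Isg15 (-0.42) and Rtp4 (-0.41) with LE, and Oas1g (-0.51) and Ifi44l (-0.49) with SE, came under the fold minimum. Of these 12 calls, those of Rsad2, Oas1g and Siglec1 with LE held whichever replicate number was left out, and the other 9 were each lost without at least 1 of them. For SE, 1 member was called without replicate 1 and 5 without replicate 2.

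The genes that make and carry the type I signal were followed from lists written down by hand. Beside their counts stand the shares of all genes, 9.79% higher and 8.28% lower with IFN-γ alone, 9.58% and 5.93% with LE+IFNy, and 5.01% and 2.38% with SE+IFNy over IFN-γ alone. Of 17 type I interferon genes (Ifnb1, Ifnab, Ifne, Ifnk and the Ifna genes), 0 passed the filter on low counts in any comparison. Ifnb1, the gene of IFN-β, had 1, 3 and 3 counts in the LE+IFNy libraries and 4, 3 and 1 in the SE+IFNy libraries, 1 count in 1 SE library, and 0 counts in every PBS, LE, PE, IFNy and PE+IFNy library. All but 1 of these libraries lie at or under the 3 counts that a count of 0 allows, and no difference is read from them. Of the 7 genes of the receptor and its STAT complex, 2 rose with IFN-γ alone, among them Stat2 by 1.31 (adjusted p 1.06e-06 by edgeR). Stat2 had 54.8, 63 and 63.3 CPM in PBS and 144, 166 and 133 CPM with IFNy, and Irf9, its DNA-binding partner, was not called, at 0.25. With LE+IFNy, 1 of the 7 rose over IFN-γ alone, Jak1 by 0.78 (adjusted p 6.07e-07 by edgeR), and with SE+IFNy 0 did. Irf7, the factor that drives interferon genes, rose by 0.91 (adjusted p 0.000106 by edgeR) with IFN-γ, from 72.9, 81.8 and 94.8 to 162, 129 and 171 CPM. With LE+IFNy it had 298, 306 and 322 CPM, a rise of 1.02 (adjusted p 4.85e-08 by edgeR) over IFN-γ alone, and with SE+IFNy 364, 362 and 352 CPM, a rise of 1.25 (adjusted p 1.05e-08 by edgeR). With PE+IFNy it had 155, 135 and 124 CPM and was not called, at -0.13. Of the 5 interferon regulatory factors, 3 rose with IFN-γ, Irf1 most, by 2.83 (adjusted p 5.01e-09 by edgeR), and Irf1 fell with SE+IFNy against IFN-γ alone, by 0.64 (adjusted p 3.21e-05 by edgeR).

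Of 14 sensors and adaptors 4 rose and 1 fell with IFN-γ alone, and 2 rose with LE+IFNy and with SE+IFNy over IFN-γ alone. Zbp1, a sensor of Z-form nucleic acid, rose by 4.90 (adjusted p 1.46e-10 by edgeR) with IFN-γ, by 0.63 (adjusted p 2.42e-06 by edgeR) more with LE and by 0.68 (adjusted p 2.43e-06 by edgeR) more with SE, and Tlr9 rose by 2.12 (adjusted p 2.75e-07 by edgeR) with IFN-γ. Of 3 ISG15-conjugating genes 2 rose with IFN-γ, Herc6, the ligase, by 2.29 (adjusted p 6.6e-07 by edgeR) and Ube2l6 by 0.60 (adjusted p 0.000239 by edgeR), and 0 with a peptide over IFN-γ alone. Of 5 negative regulators 3 rose with IFN-γ, Socs1 by 2.37 (adjusted p 4.68e-05 by edgeR) and Socs3 by 0.64 (adjusted p 0.00734 by edgeR) among them. With LE+IFNy, Socs1 fell by 0.73 (adjusted p 0.000748 by edgeR) and Socs3 rose by 0.83 (adjusted p 1.58e-05 by edgeR) against IFN-γ alone. Of 28 other interferon-induced effectors tested, 8 rose and 3 fell with IFN-γ alone. The filter on low counts passed 27 of the 32 listed among the groups without IFN-γ and 30 among those with it. Some that rose may thus have been tested only because their IFNy libraries were high. Ifi205 (4.74, adjusted p 4.06e-06 by edgeR) and Ms4a4c (3.08, adjusted p 0.000633 by edgeR) rose most. Of 30 tested with IFN-γ present, 5 rose and 1 fell with LE, 4 rose and 1 fell with SE, and 0 were called with PE. Ifit3b, the near copy of Ifit3, rose by 1.59 (adjusted p 0.00383 by edgeR) with LE and 1.48 (adjusted p 0.0115 by edgeR) with SE, at means of 0.644 and 0.596 CPM.

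The HLA-labelled libraries are given as labelled, with no test, since their IFN-γ targets went against the label in 12 of 24. The targets do not check the peptide, and in the count table each set of 3 HLA-labelled columns stands beside 3 letter columns with another group label, so the labels of the other 12, PBS included, are in doubt too. Mx1 had 7.005, 7.8 and 19.97 CPM in those labelled LE and 7.07, 5.78 and 6.86 CPM in those labelled PE. In those labelled IFNy it had 0.265, 0.248 and 0.202 CPM, and in those labelled SE+IFNy 0.121, 0.0708 and 0.309 CPM. Mx1 thus followed the IFN-γ targets in these libraries and not the label. Rsad2 had 97.4, 101 and 141 CPM in those labelled LE, 92.7, 95 and 103 CPM in those labelled PE, 30.9, 30.8 and 34.9 CPM in those labelled LE+IFNy and 29.4, 21.3 and 22.7 CPM in those labelled PE+IFNy. In those labelled PBS, SE, IFNy and SE+IFNy, Rsad2 had mean values of 9.53, 7.03, 5.97 and 5.48 CPM. Oas2 had 39.4, 24.7, 19.4 and 23.5 CPM on average in those labelled LE, PE, LE+IFNy and PE+IFNy, against 64.4, 59.6, 56.3 and 50.6 CPM in those labelled PBS, SE, IFNy and SE+IFNy. The sixth LE-labelled library, with the highest Mx1, had 54.1 CPM of Oas2, inside the range of the libraries labelled IFNy. Bst2 was lower throughout than in the letter-labelled series, at 54.7 CPM in the HLA-labelled libraries labelled PBS against 151 CPM, and Isg15 had 8.66 against 16.5 CPM.

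**Figure D5:**
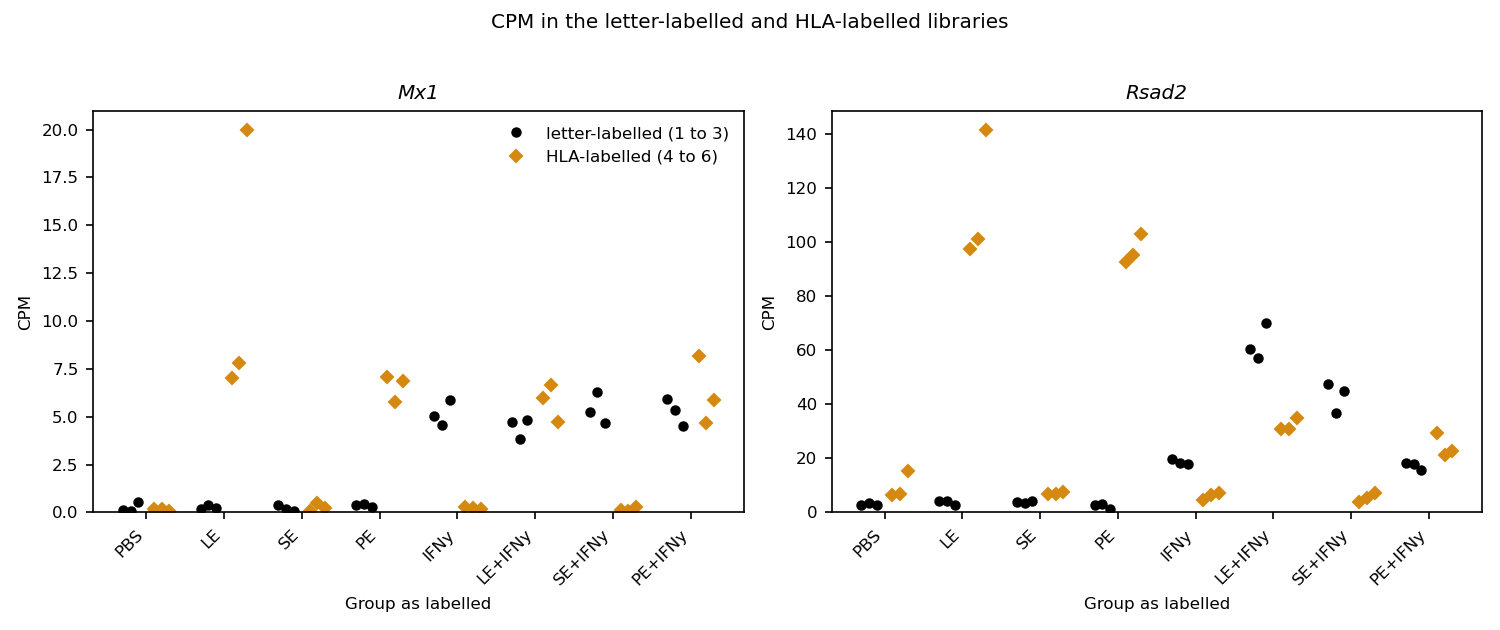
CPM of Mx1 and Rsad2 in every library by its label, with letter-labelled libraries (replicates 1 to 3) as black circles and HLA-labelled ones (4 to 6) as orange diamonds. HLA-labelled libraries labelled LE and PE are high and those labelled IFNy and SE+IFNy low, the reverse of the letter-labelled libraries with those 4 labels.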

How the data were processed

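Polyadenylated RNA of 48 libraries was sequenced, single-end. The deposited table holds whole-number counts for each gene, not normalized, which the authors made from uniquely mapped reads counted with featureCounts on GENCODE annotation (submitters' processing notes: build GRCm38.p5, DESeq2 1.16.1 and R 3.4.1). Unique mapping lowers the counts of near-identical genes. Whether counting used strand is not given in the sources used here, so genes with an overlapping antisense partner (Parp9 with Dtx3l, and Dhx58, Oasl1, Usp18, Ifi35 and Eif2ak2) are uncertain. Columns were matched to samples by name, and all 48 were used. Lines with date-like or repeated gene names (26) stayed in the totals and are not named. Tests used edgeR 4.0.16 in R 4.3.3 (TMM, filterByExpr, quasi-likelihood F test), with Benjamini-Hochberg adjustment over all genes tested. IFNy and PBS had a fit of their own. The 4 groups without IFN-γ, the 4 with it, the 6 with peptide and all 8 had 1 fit each. CPM were taken on the library total, and exon lengths, positions and shared 100-base words came from GENCODE M21. Simulated data served to test 3 of these fits: IFNy with PBS, the 4 IFN-γ groups, and all 8 groups together. For the fits behind the peptide-alone results and Model B, no such test is reported. Replicate libraries of a group differed by at least 3.89 chi-square per degree of freedom, so each counted as 1. The members, roles and gene lists were chosen with earlier results of these data known. Members named for every library were fixed by name or as the 3 called members per direction with the largest fold change in a comparison. Outside the members, Stat2, Irf9, Irf7, Ifnb1 and up to 2 per list with the largest fold change among those called with IFN-γ alone or with LE+IFNy were named, and some items that this rule would name are not reported here. Alternatives were DESeq2 1.42.0 (size factors, Wald test), no filter, no fold minimum, 1 fit, a replicate block, leaving out each replicate number, both label series and, chosen after seeing the data, a length trend subtracted.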

Additional observations from a re-analysis of the deposited data

Results flagged for a closer look

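The results given here are members whose response to IFN-γ differed with a peptide, by the interaction test (edgeR, adjusted over all genes). Beside them stand Mx1 and Rsad2, with high levels in HLA-labelled libraries that the comparisons do not use. For this, no other member and no labels but LE and PE were looked up. With LE, the interaction on the log2 scale was 1.31 for Rsad2, 1.03 for Siglec1, 0.934 for Ifit3, 0.892 for Mx2, 0.661 for Trim30a, -0.666 for Isg15, -0.614 for Rtp4, -0.86 for Isg20 and -0.974 for Oas1g, each with 3 libraries per group. With SE it was 0.77 for Rsad2, -0.636 for Oas1g and -0.647 for Ifi44l. The LE calls were 14.3% of members higher and 11.4% lower, where 11.3% and 7.58% of all genes were called. For SE the shares were 2.86% and 5.71%, where 5.08% and 2.88% of all genes were called. With shares this close, the number of calls is not a result about these members as a set. The LE call of Isg15 was lost without replicate 1 (-0.54). The LE call of Ifit3 was lost without replicate 1 (0.97) and without replicate 2 (0.63). The LE call of Mx2 was lost without replicate 2 (0.75) and without replicate 3 (0.66). The LE call of Rtp4 was lost without replicate 2 (-0.49). The LE call of Trim30a was lost without replicate 1 (0.56) and without replicate 3 (0.56). The LE call of Isg20 was lost without replicate 3 (-0.76). The SE call of Oas1g was lost without replicate 3 (-0.55). The SE call of Rsad2 was lost without replicate 1 (0.81) and without replicate 2 (0.64). The SE call of Ifi44l was lost without replicate 1 (-0.54) and without replicate 2 (-0.58). In the HLA-labelled libraries labelled LE, Mx1 had 11.6 ± 7.26 CPM (SD, n = 3) and Rsad2 113 ± 24.4 CPM. In those labelled PE, Mx1 had 6.57 ± 0.692 CPM and Rsad2 96.8 ± 5.24 CPM, above the HLA-labelled libraries labelled PBS, whose label is also in doubt (0.135 and 9.53 CPM).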

How the results depend on the processing

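With 3 libraries per group, a member near the floor such as Mx1 has a wide interval, and log2 fold changes ran with exon length in several comparisons. Under DESeq2 size factors, the DESeq2 Wald test and 1 fit of all groups, every count of called members stayed within 1.5 times the main count and no called member lost its call. With no filter on low counts 1 member was called for the interaction of PE with IFN-γ and Ifit3 lost its LE interaction call. With no fold minimum the counts were 9 for SE against PBS, 5 for PE against PBS, 23 for LE+IFNy against IFNy, 18 for SE+IFNy against IFNy, 3 for PE+IFNy against IFNy, 17 for LE+IFNy against SE+IFNy, 24 for LE+IFNy against PE+IFNy, 20 for SE+IFNy against PE+IFNy and 5 for the interaction of SE with IFNy. With the length trend subtracted they were 0 for PE+IFNy against IFNy, 0 for LE+IFNy against SE+IFNy and 1 for the interaction of SE with IFNy. With both label series as labelled, 1 member was called for LE+IFNy against IFNy, LE+IFNy against LE and PE+IFNy against PE and 0 in the other comparisons, and these values of members turned direction, where the IFN-γ targets of 12 added libraries went against the label. For SE against PBS this was -0.033 for Oasl2. For PE against PBS this was 0.32 for Dtx3l. For SE+IFNy against IFNy this was -0.014 for Mx2. For PE+IFNy against IFNy this was 0.27 for Siglec1. For LE+IFNy against LE these were -0.50 for Ifit1, -0.40 for Ifit2, -0.51 for Ifit3, -0.31 for Mx1, -0.71 for Mx2, -0.23 for Oasl1, -0.19 for Oasl2, -0.41 for Rsad2, -0.027 for Ifih1, -0.064 for Xaf1, -0.22 for Siglec1, -0.31 for Cmpk2, -0.27 for Dtx3l and -0.27 for Trim30a. For PE+IFNy against PE these were -0.84 for Ifit1, -0.20 for Ifit2, -0.33 for Oasl1, -1.30 for Rsad2, -0.16 for Ifih1 and -0.13 for Cmpk2. For SE+IFNy against PE+IFNy these were -0.15 for Ifit1 and -0.17 for Ifit3. For the interaction of LE with IFNy these were -1.77 for Ifit3, -0.70 for Mx2, -1.35 for Rsad2, -0.53 for Siglec1 and -0.18 for Trim30a. Leaving out 1 replicate number at a time, the counts ran from 14 to 17 for IFNy against PBS, 0 for LE against PBS, 0 to 3 for SE against PBS, 0 to 5 for PE against PBS, 5 to 8 for LE+IFNy against IFNy, 7 to 8 for SE+IFNy against IFNy, 0 to 2 for PE+IFNy against IFNy, 20 to 24 for LE+IFNy against LE, 20 to 21 for SE+IFNy against SE, 16 to 17 for PE+IFNy against PE, 2 to 4 for LE+IFNy against SE+IFNy, 6 to 10 for LE+IFNy against PE+IFNy, 8 for SE+IFNy against PE+IFNy, 6 to 7 for the interaction of LE with IFNy, 1 to 5 for the interaction of SE with IFNy and 0 for the interaction of PE with IFNy. Replicate numbers were not taken as pairs, since the labels name nothing that same-numbered libraries share. Their letters do run by replicate number (A to H, I to P and Q to X), with 1 library of each group in each run. Of 84 correlations of deviations between same-numbered libraries 25 were over 0.1 (median 0.049), and all 3 were over 0.1 for 3 of 28 pairs of groups (LE with SE, LE with PE and SE with PE, without IFN-γ), none of which was compared directly. Among compared pairs, IFNy with LE+IFNy had 0.219, 0.0878 and 0.14, and SE with SE+IFNy had -0.0527, -0.00299 and -0.018. A library correlated best with its own number in 91 of 168 choices, each made among the 3 libraries of another group. With nothing shared by number, about 1 choice in 3 would fall there. The excess was not tested, and the choices are not independent. With the replicate block the counts were the same as without it, from 0 to 23 over the comparisons, and no called member lost its call.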
